A study of Mus musculus with 23 samples.

Results

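Regions of open chromatin that lie outside genes, but that the authors' peak table still ties to a gene, are described here across natural killer (NK) cells and type 1 innate lymphoid cells (ILC1s) of the mouse. They were taken by reading 2 columns of that table, the type of a peak (intergenic) and its gene (filled in). No measured value entered this rule, though it was chosen with earlier results of these data known. They numbered 9183 of 51412 peaks, and they are called intergenic peaks below. The table also held 18011 promoter peaks, 15272 intron peaks, 3426 exon peaks and 5520 intergenic peaks with no gene.

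ATAC-seq, in which a transposase cuts open chromatin and the cut fragments are sequenced, was run on 4 groups of 50000 sorted cells, each with 2 libraries labelled as mouse replicates: NK cells of the liver, NK cells of the spleen, ILC1s of the liver and ILC1s of the salivary gland. The sort markers in the series' design text were NK1.1 and NKp46 for all groups, with CD49b but not CD49a for NK cells and with CD49a for ILC1s. The cell type labels of the same libraries instead name reporter alleles, S1pr5eGFP+ for NK cells and GzmC+GzmcFM+ for ILC1s, so the labels differ on the gate. RNA-seq was run on 15 libraries from 6 mice, all of liver: 4 of S1pr5eGFP+ NK cells, 4 of DP ILC1s (GzmC+GzmcFM+, granzyme C made at the time of the sort), 4 of FMSP ILC1s (GzmC-GzmcFM+, granzyme C made in the past) and 3 of DN ILC1s (GzmC-GzmcFM-, neither). The labels used here give no age and no further allele, and no treatment. Liver was digested with collagenase for 30 minutes, salivary gland for 1 hour, and spleen was broken up mechanically, so organ and preparation cannot be told apart.

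NK cells and ILC1s are lymphocytes that kill target cells and release interferon gamma without antigen receptors. Conventional NK cells circulate, guided out of tissue by sphingosine-phosphate receptors under the control of KLF2, whereas ILC1s stay in organs such as liver and salivary gland and carry integrins and the residency factor Hobit, encoded by Zfp683. Enhancers are regulatory sequences away from gene starts at which transcription factors bind, and they commonly lie in open chromatin that differs more between cell types than promoters do. A peak between genes does not show which gene it acts on, and the gene named beside a peak below is the one in the authors' table.

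Intergenic peaks lay close to their assigned genes. Only peaks with a gene were taken and the rule of assignment is not given, so this closeness may only describe that rule. Intergenic peaks spanned a median of 875 bases (199 to 3849), against 1237 bases for promoter peaks. They were spread over 6289 genes, of which 4320 had 1 such peak, 1356 had 2, 408 had 3, 135 had 4 and 70 had 5 or more. The predicted gene Gm12596 had the most, 10, and Fasl, which encodes the death ligand FasL, was among the genes with 7. For 7353 peaks (80.1%) the gene could be found in the RefSeq table of GRCm38.p6, the same assembly as mm10. Of these, 97.6% had their centre within 20 kb of the gene body, at a median distance of 7160 bases where they lay outside it (10th to 90th percentile 2060 to 16837). Among 5283 peaks assigned to a protein-coding gene, that gene was the nearest coding gene for 5055 (95.7%). A further 853 were assigned to long noncoding RNA genes and 832 to pseudogenes.

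The 4556 peaks whose gene had a known strand and which lay outside it were not spread evenly around the gene. Downstream of the gene lay 2701 (59.3%), at a median of 5848 bases, and upstream 1855, at a median of 8569 bases. The plot of position against the gene body shows few upstream peaks within 2 kb of a gene start. The type did not always match RefSeq: 1474 intergenic peaks (16.1%) had their centre inside some RefSeq gene, and 296 inside the very gene they were assigned to.

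**Figure D1:**
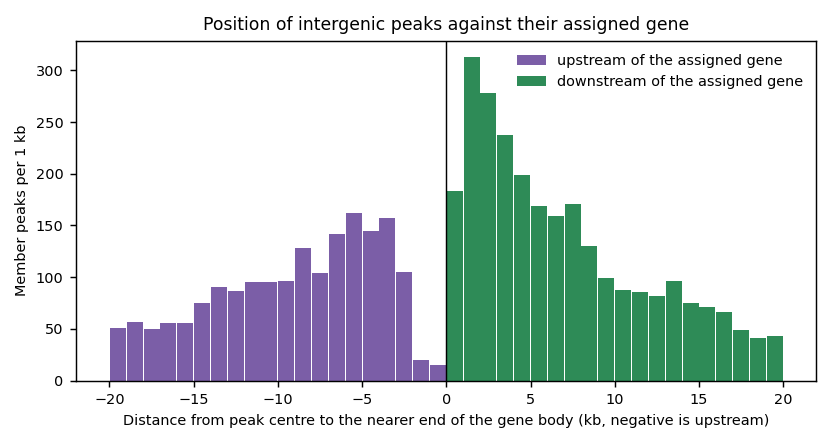
Number of intergenic peaks (vertical axis, per 1 kb) by the distance from the peak centre to the nearer end of the assigned gene (horizontal axis, kb, negative is upstream), for peaks whose gene has a known strand. Downstream bars are highest within the first few kb and the bars for the 2 kb upstream of genes are nearly empty.

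Some intergenic peaks held the start of a gene, mostly another than the assigned one. RefSeq start windows, from 250 bases before to 50 bases after a gene's start, overlapped 169 intergenic peaks (1.84%), and 114 peaks held a whole window, 11 of them that of the assigned gene itself. Of the windows below, 3 are shown because their peaks differed between liver ILC1s and liver NK cells, and 1 because its peak differed between spleen and liver NK cells. They were picked after the values had been seen. The Gm8630 start in the Tle4 peak and the Zfp983 start were searched too, held no motif match and are not printed. Each is written 5′ to 3′ on the strand of the gene that starts in it (RefSeq, GRCm38.p6), with capitals for motif matches.
Gm51961 start, in the Trmt61a peak, chr12:111694502-111694801, + strand: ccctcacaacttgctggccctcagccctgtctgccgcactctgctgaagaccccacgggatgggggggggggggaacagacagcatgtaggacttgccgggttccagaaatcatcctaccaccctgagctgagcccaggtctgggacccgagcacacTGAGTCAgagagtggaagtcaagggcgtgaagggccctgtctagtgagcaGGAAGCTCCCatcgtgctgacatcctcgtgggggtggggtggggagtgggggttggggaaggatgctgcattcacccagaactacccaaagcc
Gm46298 start, in the Axin2 peak, chr11:108910910-108911209, - strand: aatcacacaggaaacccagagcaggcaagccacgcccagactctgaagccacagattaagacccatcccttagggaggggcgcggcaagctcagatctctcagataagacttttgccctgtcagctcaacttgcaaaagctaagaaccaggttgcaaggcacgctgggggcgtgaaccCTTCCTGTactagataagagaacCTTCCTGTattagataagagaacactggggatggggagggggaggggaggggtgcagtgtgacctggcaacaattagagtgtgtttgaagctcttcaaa
Gm46335 start, in the Gm5432 peak, chr12:15896774-15897073, - strand: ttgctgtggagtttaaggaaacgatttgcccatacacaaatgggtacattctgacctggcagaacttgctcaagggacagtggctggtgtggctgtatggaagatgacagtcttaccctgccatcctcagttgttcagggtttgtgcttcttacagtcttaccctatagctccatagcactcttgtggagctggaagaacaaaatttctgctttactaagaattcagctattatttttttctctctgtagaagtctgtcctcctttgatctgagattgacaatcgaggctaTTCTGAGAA
Zfp869 start, in the Zfp869 peak, chr8:69716853-69717152, - strand: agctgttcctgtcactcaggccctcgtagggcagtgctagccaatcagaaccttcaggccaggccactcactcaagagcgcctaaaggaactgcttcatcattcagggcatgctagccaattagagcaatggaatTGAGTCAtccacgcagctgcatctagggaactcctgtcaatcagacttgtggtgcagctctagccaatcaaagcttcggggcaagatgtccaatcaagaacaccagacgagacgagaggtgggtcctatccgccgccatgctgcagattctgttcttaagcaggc

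The capitals mark letters that a search on both strands found, and a match is a description of the letters only. In the Gm51961 window they are TGAGTCA, which fits the AP-1 pattern TGANTCA, and GGAAGCTCCC, which on the other strand fits the NF-kB pattern (GGGA, any 4 bases, CC). The Gm46298 window holds CTTCCTGT at 2 places, the reverse complement of the ETS pattern ACAGGAAG, which is the core that ETS family factors of lymphocytes bind. The Gm46335 window ends in TTCTGAGAA, which fits the STAT pattern TTCNNNGAA, and the Zfp869 window holds TGAGTCA once more. Over all 32851 start windows in the table, AP-1 letters were in 7.81%, ETS letters in 3.58%, STAT letters in 8.30% and NF-kB letters in 20.7%. Over the 126 windows that lay whole within an intergenic peak, the shares were 16.7%, 8.73%, 6.35% and 16.7%. Further patterns in these 126 windows were T-box AGGTGTGA in 4.76% (1.28% of all), CTCF (CCA, any 2 bases, AG, any 2 bases, GGC) in 7.14% (2.43%), RUNX TGTGGTT in 6.35% (5.27%), TCF/LEF CTTTGAA in 5.56% (5.14%) and KLF GGGTGTGG in 3.17% (3.56%). The windows of the 126 are few, and these shares are given without a test.

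Counts in peaks ran from 5609587 to 26944890 per ATAC library, and a tested intergenic peak held a median of 53 to 138 reads. Levels are CPM, the read count of a peak scaled to a common total of reads in peaks, on library sizes adjusted with TMM factors. RNA libraries held 51641248 to 73309063 estimated counts. Among marker lists of other cell types, summed over all their peaks, B cell genes stood at 96.7 to 165 CPM (15 peaks) and T cell genes at 435 to 598 CPM (31 peaks), with no library at 0. Peaks of salivary epithelium genes stood at 320 and 323 CPM in the salivary gland ILC1 libraries, 228 to 248 in the 4 liver libraries and 156 and 175 in the spleen NK libraries (26 peaks). Their 6 intergenic members stood at 70.4 and 63.2 CPM in salivary gland ILC1s and at 69.4 and 76.0 in spleen NK cells. The part of such cells in the results was not tested, and in bulk ATAC-seq fewer cells of a type and less signal per cell cannot be told apart.

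Intergenic peaks took 12.8% and 12.4% of the counts in peaks in the liver NK libraries, 12.1% and 11.4% in liver ILC1, 10.1% and 10.4% in spleen NK, and 10.8% and 10.7% in salivary gland ILC1. The 95% Wilson intervals were within 0.0273 percentage points of each value and cover counting error only. The 4 liver libraries lay above the 4 others. Between cell types the share did not separate: it was 11.3% ± 0.651 (SD, n = 4) in ILC1 libraries and 11.4% ± 1.40 (n = 4) in NK libraries, a difference of -0.162 percentage points (exact permutation test, 2-sided, p = 0.886, where the smallest p possible is 0.0286). Its sign changed when liver NK replicate 1 (0.311), liver NK replicate 2 (0.163) or salivary gland ILC1 replicate 2 (0.0148) was left out. The order of organs followed the share of promoter peaks in reverse, which was 53.6% and 55.4% in liver NK, 57.2% and 60.4% in liver ILC1, 65.2% and 63.8% in spleen NK, and 61.4% and 61.9% in salivary gland ILC1. Log2 CPM of the replicates correlated across the 9153 tested intergenic peaks with r = 0.926 in liver NK, 0.937 in liver ILC1, 0.959 in spleen NK and 0.977 in salivary gland ILC1, as a description across peaks, which share libraries and depth.

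The tests below ask where chromatin differed, first between ILC1s and NK cells and then between organs. A peak is called where the adjusted p of edgeR's quasi-likelihood test is below 0.05, with all 51292 tested peaks in the adjustment. Of the 9183 intergenic peaks 9153 were tested and 30 were too low in count. Changes are log2 fold changes with their standard error (SE). With 2 libraries a group, p-values and SE rest on a spread estimated jointly from all libraries as a trend over peak level. They do not rest on the scatter of a single peak between its own libraries. The spread between libraries may be technical.

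Liver ILC1s and liver NK cells differed at 1588 intergenic peaks, 17.3% of those tested, against 18.7% of all peaks. Accessibility was higher in ILC1s at 717 and lower at 871, where the shares over all peaks were 9.83% higher and 8.85% lower. Of the calls, 45.2% were higher in ILC1s among intergenic peaks, 73.9% among promoter peaks and 41.7% among intron peaks. The count fell to 742 without liver ILC1 replicate 2, to 997 without liver NK replicate 1 and to 1027 without liver NK replicate 2. Upstream peaks were called at 191 higher and 163 lower (19.2% of 1847) and downstream peaks at 173 higher and 222 lower (14.6% of 2697), with more gains than losses upstream and the reverse downstream. The level of a peak moved with its direction: the 2296 peaks with the highest mean CPM held 428 higher and 313 lower calls, and the 2266 with the lowest held 31 higher and 94 lower.

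Among the largest gains in liver ILC1s was the peak of Osgin1, an oxidative stress response gene, at chr8:119427978-119428634 (inside the gene body in RefSeq). It stood at 4.05 and 3.86 CPM in the 2 liver NK libraries, 23.0 and 23.4 in liver ILC1, 1.88 and 2.34 in spleen NK and 12.9 and 10.9 in salivary gland ILC1. All 4 ILC1 libraries lay above all 4 NK libraries. The difference was 2.55 ± 0.29 (SE, adjusted p = 1.30e-15) in liver and 2.49 ± 0.30 (SE, adjusted p = 2.30e-15) for salivary gland ILC1s against spleen NK cells. Hectd2, which encodes a ubiquitin ligase, had a peak at chr19:36533853-36534942, 19729 bases from the gene, with 7.57 and 9.65 CPM in liver NK, 31.9 and 34.0 in liver ILC1, 7.61 and 8.11 in spleen NK and 37.7 and 38.0 in salivary gland ILC1. The Hectd2 peak rose by 1.95 ± 0.22 (SE, adjusted p = 2.33e-16) in liver and 2.27 ± 0.20 (SE, adjusted p = 7.55e-27) in the other pair. Leading gains and losses were picked only where the compared libraries did not overlap, so that lack of overlap was set in advance. It held at 706 of the 717 gains and 868 of the 871 losses called in liver. The share over all called peaks was not computed, so these counts show nothing particular to intergenic peaks. The peak of Chrna9, an acetylcholine receptor subunit gene, rose from 10.4 and 12.4 CPM in liver NK to 36.8 and 53.3 in liver ILC1, by 1.99 ± 0.21 (SE, adjusted p = 2.67e-19). Further gains were at Grasp (2.26 ± 0.36, where the nearest coding gene is Nr4a1, an immediate early nuclear receptor gene) and Ccdc80 (2.16 ± 0.26, an extracellular matrix gene).

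The peak assigned to Trmt61a, a tRNA methyltransferase gene, was high in liver ILC1s alone. It is the peak at chr12:111694344-111694958 that holds the first sequence above, and it stood at 3.26 and 3.38 CPM in liver NK, 17.6 and 13.8 in liver ILC1, 3.93 and 1.66 in spleen NK and 2.12 and 1.69 in salivary gland ILC1. The liver ILC1 libraries lay above the other 6, and the change was 2.24 ± 0.35 (SE, adjusted p = 1.43e-08) in liver against -0.59 ± 0.37 (adjusted p = 0.177) for salivary gland ILC1s and spleen NK cells. The difference between these 2 changes was 2.83 ± 0.51 (SE, adjusted p = 1.09e-06). The Axin2 peak at chr11:108910447-108911591, 6809 bases upstream of this inhibitor of Wnt signalling, had the same order, with 30.7 and 35.6 CPM in liver ILC1 against 15.1 and 12.2 in liver NK, 13.1 and 10.5 in spleen NK and 11 and 11.1 in salivary gland ILC1. It rose by 1.27 ± 0.21 (SE, adjusted p = 1.66e-07) in liver and the difference from the other pair was 1.38 ± 0.30 (SE, adjusted p = 7.89e-05).

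Losses in liver ILC1s included a peak of Rab37, a gene of secretory vesicle transport, at chr11:115077218-115078626, with 34.6 and 33.0 CPM in liver NK and 5.53 and 6.05 in liver ILC1, and with 51.8 and 49.1 in spleen NK and 1.64 and 2.02 in salivary gland ILC1. No ILC1 library reached an NK library, and the changes were -2.53 ± 0.23 (SE, adjusted p = 6.96e-26) and -4.75 ± 0.23 (SE, adjusted p = 2.71e-88). The nearest coding gene to this peak is Cd300e. The Dusp1 peak at chr17:26514434-26515511, 6500 bases upstream of a phosphatase gene that shuts off MAP kinases, stood at 30.0 and 44.9 CPM in liver NK and 5.98 and 5.36 in liver ILC1, a change of -2.72 ± 0.23 (SE, adjusted p = 1.28e-29). In the other pair it stood at 56.7 and 59.2 CPM in spleen NK and 47.3 and 42.7 in salivary gland ILC1, which did not pass the test (-0.37 ± 0.18, adjusted p = 0.0715). Liver ILC1s were thus the only low group at this peak. They were also the lowest group at the peak assigned to Gm5432, whose sequence is given above, with 13.2 and 12.1 CPM in liver ILC1 against 39.2 and 52.3 in liver NK, 83.3 and 65.7 in spleen NK and 38.7 and 43.4 in salivary gland ILC1 (-1.86 ± 0.21 (SE, adjusted p = 1.24e-16)). Mdm2, which encodes the ligase that degrades p53, lost accessibility by -2.82 ± 0.36, Ttll11 by -2.69 ± 0.22 and Ank, a pyrophosphate transport gene, by -2.55 ± 0.25.

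The same question was asked of salivary gland ILC1s and spleen NK cells, where cell type and organ differ together. Here 4633 intergenic peaks were called (50.6%, against 48.2% of all peaks), 2046 higher and 2587 lower in salivary gland ILC1s, where all peaks had 22.0% higher and 26.2% lower. The pair holds no library of the liver pair. Of the 717 peaks higher in liver ILC1s, 473 were also higher here (66.0% of them, 23.1% of the 2046), and of the 871 lower in liver ILC1s, 554 were also lower (63.6%, and 21.4% of the 2587). Opposite calls were made at 128 peaks: 30 were higher in liver ILC1s and lower in salivary gland ILC1s, and 98 the reverse. The difference between the changes of the pairs was itself called at 2617 intergenic peaks (28.6%, against 30.0% of all peaks), higher in liver at 1314 and lower at 1303 (all peaks, 16.6% and 13.5%). The plot of both changes shows the called peaks mostly in the quadrants of equal sign.

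**Figure D2:**
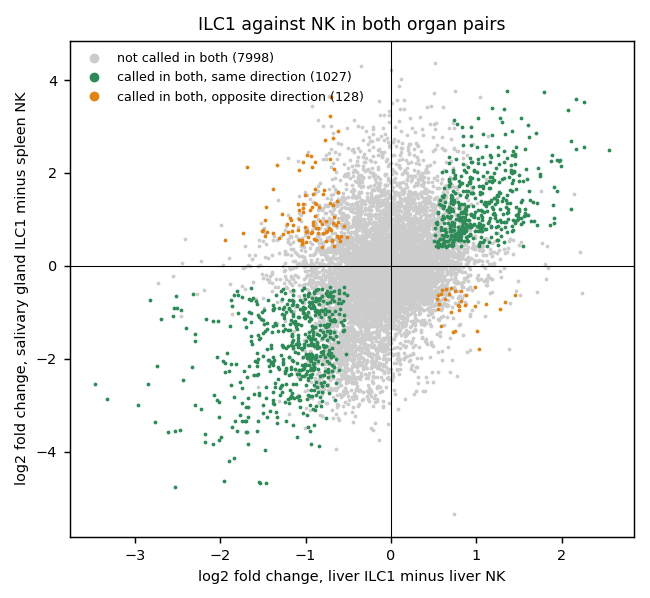
Each point is 1 of the 9153 tested intergenic peaks, with its log2 fold change between liver ILC1s and liver NK cells (horizontal axis) and between salivary gland ILC1s and spleen NK cells (vertical axis). Of the peaks called in both pairs 1027 had the same direction (green) and 128 the opposite one (orange).

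Among the largest gains in salivary gland ILC1s over spleen NK cells was a peak of Pi4k2b, a phosphoinositide kinase gene, at chr5:52771165-52772006, with 24.9 and 24.7 CPM in salivary gland ILC1, 1.80 and 0.781 in spleen NK, 5.48 and 2.73 in liver NK and 4.04 and 4.29 in liver ILC1. Salivary gland ILC1s alone were high, with a change of 4.22 ± 0.32 (SE, adjusted p = 7.57e-37) against -0.00 ± 0.34 in liver (adjusted p = 0.995). The peak of Diaph2, a formin gene of the actin skeleton, showed the same order at 41.4 and 40.8 CPM in salivary gland ILC1, 2.46 and 4.10 in spleen NK, 5.74 and 5.63 in liver NK and 4.79 and 2.44 in liver ILC1 (3.66 ± 0.25 (SE, adjusted p = 5.38e-46)). The Ppp2r5c peak, near a regulatory subunit of phosphatase 2A, rose in both pairs, by 1.36 ± 0.28 in liver and 3.77 ± 0.28 here. The deepest losses were at Rab37 and at Slc2a10, a glucose transporter gene, with 1.23 and 0.494 CPM in salivary gland ILC1, 23.0 and 17.9 in spleen NK, 5.53 and 3.51 in liver ILC1 and 12.1 and 13.5 in liver NK. Its change was -4.67 ± 0.33 (SE, adjusted p = 3.45e-43) here and -1.54 ± 0.30 (SE, adjusted p = 1.23e-05) in liver. The peak of Tcrg-C2, a T cell receptor gamma constant gene, rose by 3.72 ± 0.32 (SE, adjusted p = 3.68e-29). The 31 peaks of all types at T cell marker genes summed to 502 and 534 CPM in salivary gland ILC1 and 598 and 583 in spleen NK. Of their 6 intergenic peaks 3 were higher and 0 lower in salivary gland ILC1s (median 0.43), and these 6 summed to 122 and 129 CPM there and 131 and 136 in spleen NK. The part of T cells in the Tcrg-C2 result was not tested.

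Secreted proteins came first among the lists of genes, which were written with earlier results of these data known. Of 19 intergenic peaks at 11 cytokine and chemokine genes, 4 were higher and 3 lower in liver ILC1s. Over all peaks 9.83% were higher and 8.85% lower in liver ILC1s, and 22.0% and 26.2% in the other pair, and these shares stand beside the counts of every list. The Il2 peak, 2534 bases upstream of the gene for this T cell growth factor at chr3:37128138-37128838, stood at 6.4 and 5.95 CPM in liver NK, 13.3 and 17.4 in liver ILC1, 2.70 and 3.03 in spleen NK and 32.0 and 27.7 in salivary gland ILC1. ILC1 and NK libraries did not overlap, with changes of 1.32 ± 0.26 (SE, adjusted p = 1.13e-05) in liver and 3.38 ± 0.26 (SE, adjusted p = 2.50e-37) in the other pair. The peak downstream of Csf2, which encodes GM-CSF, at chr11:54239673-54240664 had 13.7 and 10.6 CPM in liver NK, 28.4 and 35.3 in liver ILC1, 9.99 and 12.7 in spleen NK and 27.9 and 29.4 in salivary gland ILC1. ILC1 libraries were all above NK libraries, with changes of 1.39 ± 0.21 in liver and 1.34 ± 0.20 in the other pair. The strongest loss was 10085 bases downstream of Ifng, the interferon gamma gene, at chr10:118455663-118456295, with 9.40 and 12.5 CPM in liver NK, 2.84 and 0.975 in liver ILC1, 12.1 and 8.50 in spleen NK and 1.03 and 0.741 in salivary gland ILC1. It fell in ILC1s of both organs (-2.61 ± 0.39 and -3.57 ± 0.37).

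Cytotoxic granule genes had 19 intergenic peaks at 10 genes, of which 4 were higher and 4 lower in liver ILC1s, with a median change of -0.08 against -0.09 over all intergenic peaks. The peak upstream of Gzmb, the gene of the protease granzyme B, at chr14:56265911-56266734 stood at 8.88 and 9.17 CPM in liver NK, 20.5 and 28.6 in liver ILC1, 4.75 and 4.69 in spleen NK and 25.0 and 25.0 in salivary gland ILC1. It was higher in all ILC1 libraries, by 1.46 ± 0.23 (SE, adjusted p = 2.38e-08) and 2.40 ± 0.23 (SE, adjusted p = 1.55e-23). The peak 832 bases downstream of Gzmc, which encodes granzyme C, did not follow the liver pair: it stood at 11.2 and 7.72 CPM in liver NK, 8.23 and 5.85 in liver ILC1, 1.80 and 3.52 in spleen NK and 13.3 and 16.3 in salivary gland ILC1. The liver libraries overlapped (-0.46 ± 0.30, adjusted p = 0.288), whereas salivary gland ILC1s exceeded spleen NK cells by 2.50 ± 0.30 (SE, adjusted p = 1.76e-15). Of the 7 peaks of Fasl 1 rose and 1 fell in liver ILC1s. The peak at chr1:161778904-161779656, downstream, went from 14.2 and 10.3 to 26.0 and 36.1 CPM (1.34 ± 0.21 (SE, adjusted p = 8.08e-09)), and the peak at chr1:161798750-161799628, upstream, from 18.8 and 19.6 to 8.82 and 7.02 CPM (-1.29 ± 0.24 (SE, adjusted p = 2.61e-06)).

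Cytokine receptor genes had 7 of 22 intergenic peaks higher and 3 lower in liver ILC1s, and 12 higher and 4 lower in salivary gland ILC1s over spleen NK cells. All 3 peaks of Il21r, the interleukin 21 receptor gene, were higher in liver ILC1s. The one at chr7:125592615-125594484, upstream, stood at 26.1 and 36.0 CPM in liver NK, 74.8 and 96.1 in liver ILC1, 31.5 and 28.6 in spleen NK and 90.2 and 99.8 in salivary gland ILC1 (1.47 ± 0.20 (SE, adjusted p = 3.90e-11), and 1.66 ± 0.20 in the other pair). The other peaks rose by 1.52 ± 0.30 and 0.75 ± 0.19, and the call of the third was lost without liver ILC1 replicate 2 (adjusted p = 0.0728) or without liver NK replicate 1 (0.0537). The peak upstream of Tgfbr1, a receptor for TGF-beta, rose from 3.26 and 3.06 to 10.8 and 10.5 CPM in liver and from 3.52 and 2.05 to 9.10 and 12.3 CPM in the other pair, by 1.75 ± 0.34 and 1.93 ± 0.31. The peak upstream of Il7r, the interleukin 7 receptor gene, went the other way, from 14.0 and 14.5 CPM in liver NK to 7.03 and 8.88 in liver ILC1 (-0.82 ± 0.29 (SE, adjusted p = 0.0316)). This call was lost when any 1 of the 4 liver libraries was left out, at adjusted p from 0.0589 to 0.140, and with level-dependent offsets (0.0582). The peak of Il2rb, the receptor chain shared by interleukins 2 and 15, stood at 40.2 and 41.5 CPM in liver ILC1 against 11.1 and 14.4 in salivary gland ILC1, with 29.1 and 30.4 in liver NK and 25.1 and 22.2 in spleen NK, and it was lower in salivary gland ILC1s than in spleen NK cells by -0.88 ± 0.19 (SE, adjusted p = 1.47e-05).

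Chemokine receptor genes differed by receptor. The peak upstream of Cxcr3, a receptor that draws lymphocytes to inflamed tissue, stood at 23.0 and 24.0 CPM in liver NK, 60.9 and 67.3 in liver ILC1, 33.1 and 29.4 in spleen NK and 56.7 and 61.1 in salivary gland ILC1. ILC1 libraries were all above NK libraries (1.45 ± 0.20 (SE, adjusted p = 1.63e-11) and 0.91 ± 0.18). Of the 3 Cxcr4 peaks, a pair upstream of this bone marrow homing receptor gene was lower in ILC1s: the one at chr1:128607729-128608696 had 14.5 and 14.5 CPM in liver NK, 4.64 and 5.07 in liver ILC1, 19.7 and 11.4 in spleen NK and 4.04 and 3.42 in salivary gland ILC1. Its changes were -1.57 ± 0.29 (SE, adjusted p = 3.79e-06) and -2.08 ± 0.27, and those of its neighbour -1.15 ± 0.22 and -1.03 ± 0.20. The third, downstream of the gene at chr1:128569736-128570644, had 8.35 and 7.72 CPM in liver NK, 6.88 and 8.29 in liver ILC1, 9.17 and 7.91 in spleen NK and 18.3 and 15.3 in salivary gland ILC1. It was higher in salivary gland ILC1s than in spleen NK cells, by 0.97 ± 0.25 (SE, adjusted p = 3.40e-04), and did not pass in liver (-0.07 ± 0.29, adjusted p = 0.892). The peak of Ccr8, a receptor of tissue lymphocytes, did not pass in liver (-0.24 ± 0.29, adjusted p = 0.624) and was higher in salivary gland ILC1s than in spleen NK cells by 2.26 ± 0.30 (SE, adjusted p = 1.02e-12). In counts, 1 of 11 intergenic peaks of chemokine receptor genes was higher and 2 were lower in liver ILC1s, and 7 were higher and 4 lower in the other pair.

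Genes linked to ILC1 identity and genes of exit from tissue formed a further pair of lists. Of 24 intergenic peaks at 14 liver ILC1 genes, 9 were higher and 1 lower in liver ILC1s, with a median change of 0.30 against -0.09 over all intergenic peaks. The other pair had 14 higher and 2 lower. All 3 peaks of Zfp683 rose in liver ILC1s, by 1.17 ± 0.19, 1.24 ± 0.21 and 1.37 ± 0.20. The one at chr4:134047268-134048323, nearest to the gene, stood at 17.2 and 16.1 CPM in liver NK, 36.8 and 49.2 in liver ILC1, 20.6 and 25.8 in spleen NK and 29.7 and 30.3 in salivary gland ILC1. ILC1 libraries were above NK libraries there, though by less in salivary gland (0.37 ± 0.18, adjusted p = 0.0776), and the difference between the pairs was 1.00 ± 0.27 (SE, adjusted p = 0.00165). The peak upstream of Itga1, which encodes the CD49a used in the sort, so that its values check the labels, had 6.27 and 6.27 CPM in liver NK, 9.87 and 16.9 in liver ILC1, 3.52 and 4.10 in spleen NK and 11.6 and 14.4 in salivary gland ILC1. It rose by 1.11 ± 0.29 (SE, adjusted p = 0.00168), a call that was lost without liver ILC1 replicate 2 (0.61, adjusted p = 0.346).

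Egress genes had 14 intergenic peaks at 6 genes, of which 1 was higher and 5 were lower in liver ILC1s (median change -0.51), and 1 was higher and 10 were lower in the other pair. The peak 8289 bases downstream of Klf2 at chr8:72329555-72330331 stood at 12.9 and 17.2 CPM in liver NK, 4.94 and 3.61 in liver ILC1, 16.0 and 18.6 in spleen NK and 0.889 and 1.03 in salivary gland ILC1. NK libraries of both organs were high, liver ILC1s lower and salivary gland ILC1s lowest, with changes of -1.84 ± 0.30 (SE, adjusted p = 8.67e-08) and -4.13 ± 0.32 (SE, adjusted p = 2.48e-35). The difference between these was 2.30 ± 0.45 (SE, adjusted p = 8.71e-06). A narrow peak beside it fell by -1.83 ± 0.49 and -3.33 ± 0.54, where the liver call was lost without liver ILC1 replicate 2 (-1.05, adjusted p = 0.286). Klf3, a related repressor gene, had a downstream peak that went from 16.7 and 15 to 7.48 and 7.12 CPM in liver and from 18.6 and 19.0 to 5.88 and 4.53 CPM in the other pair (-1.12 ± 0.26 and -1.87 ± 0.25). Of the peaks of S1pr1, the sphingosine-phosphate receptor gene that guides exit from tissue, the one at chr3:115692096-115693015 was lower in ILC1s of both pairs (-0.89 ± 0.20 and -0.76 ± 0.18). The one at chr3:115704331-115705262 stood at 10.1 and 6.76 CPM in liver NK, 8.82 and 6.34 in liver ILC1, 7.28 and 8.01 in spleen NK and 1.37 and 1.98 in salivary gland ILC1. Salivary gland ILC1s alone were low there (-2.15 ± 0.34 (SE, adjusted p = 1.60e-09)). Ccr7, the lymph node homing receptor gene, had a peak with the same order, at 1.57 and 0.782 CPM in salivary gland ILC1 and 6.38 and 5.86 in spleen NK (-2.44 ± 0.39 (SE, adjusted p = 5.27e-09)).

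Inhibitory receptor genes had 5 of 11 intergenic peaks higher and 1 lower in liver ILC1s. The Lag3 peak at chr6:124900816-124901703, near the gene of a checkpoint receptor, stood at 6.79 and 6.11 CPM in liver NK, 12 and 12.9 in liver ILC1, 6.22 and 6.35 in spleen NK and 32.2 and 27.4 in salivary gland ILC1. It rose by 0.94 ± 0.26 (SE, adjusted p = 0.00354) and 2.24 ± 0.23 (SE, adjusted p = 8.41e-21). Cd96, a receptor that shares its ligand with activating receptors, had a downstream peak that rose by 1.16 ± 0.28 (SE, adjusted p = 7.33e-04) in liver. Without liver ILC1 replicate 2 the liver calls were lost both for Lag3 (adjusted p = 0.0731) and for Cd96 (0.49, adjusted p = 0.479). Klrg1, a receptor gene of mature NK cells, had a peak at chr6:122262423-122263238 that was high in liver ILC1s, with 22.7 and 24.3 CPM against 9.92 and 7.4 in liver NK, 5.07 and 6.35 in spleen NK and 6.02 and 10.4 in salivary gland ILC1 (1.43 ± 0.26 (SE, adjusted p = 1.25e-06)).

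Transcription factor genes of lymphocytes had 44 intergenic peaks at 23 genes, of which 7 were higher and 3 lower in liver ILC1s, and 18 higher and 7 lower in salivary gland ILC1s over spleen NK cells. Nfil3, which encodes a factor needed for NK cells to form, had a peak at chr13:52994392-52994931 that fell from 6.53 and 6.60 to 1.79 and 2.34 CPM in liver (-1.64 ± 0.41 (SE, adjusted p = 0.00101)). Another Nfil3 peak, at chr13:52988576-52989851, was called higher in liver ILC1s. That call was lost with DESeq2 (0.58, adjusted p = 0.08835), with library totals (0.50, adjusted p = 0.113) and in every omission of 1 library. The peak at chr13:53000217-53002218 did not pass between the liver groups but stood at 72.0 and 81.4 CPM in salivary gland ILC1 against 30.7 and 40.9 in liver ILC1. The Nr4a3 peak, near an immediate early nuclear receptor gene, rose from 2.54 and 1.86 CPM in spleen NK to 12.8 and 14.0 in salivary gland ILC1 (2.59 ± 0.30 (SE, adjusted p = 3.92e-16)) and from 6.13 and 8.69 to 13.0 and 13.3 CPM in liver (0.84 ± 0.29 (SE, adjusted p = 0.024)). Spleen NK cells were the high group at the peak 1157 bases downstream of Runx3, a factor of cytotoxic lymphocytes, with 26.3 and 29.0 CPM against 12.5 and 16.1 in liver NK, 13.6 and 13.5 in liver ILC1 and 12 and 13.3 in salivary gland ILC1. Its change in that pair was -1.12 ± 0.20 (SE, adjusted p = 1.34e-07). Of the remaining lists, 7 of 27 peaks of residency and integrin genes were higher and 3 lower in liver ILC1s, with a median change of 0.02, 3 and 3 of 16 at conventional NK cell genes, and 1 and 2 of 26 at Ly49 and NKG2 family genes. The shares over all peaks were 9.83% higher and 8.85% lower, and no list was tested as a whole.

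**Figure D3:**
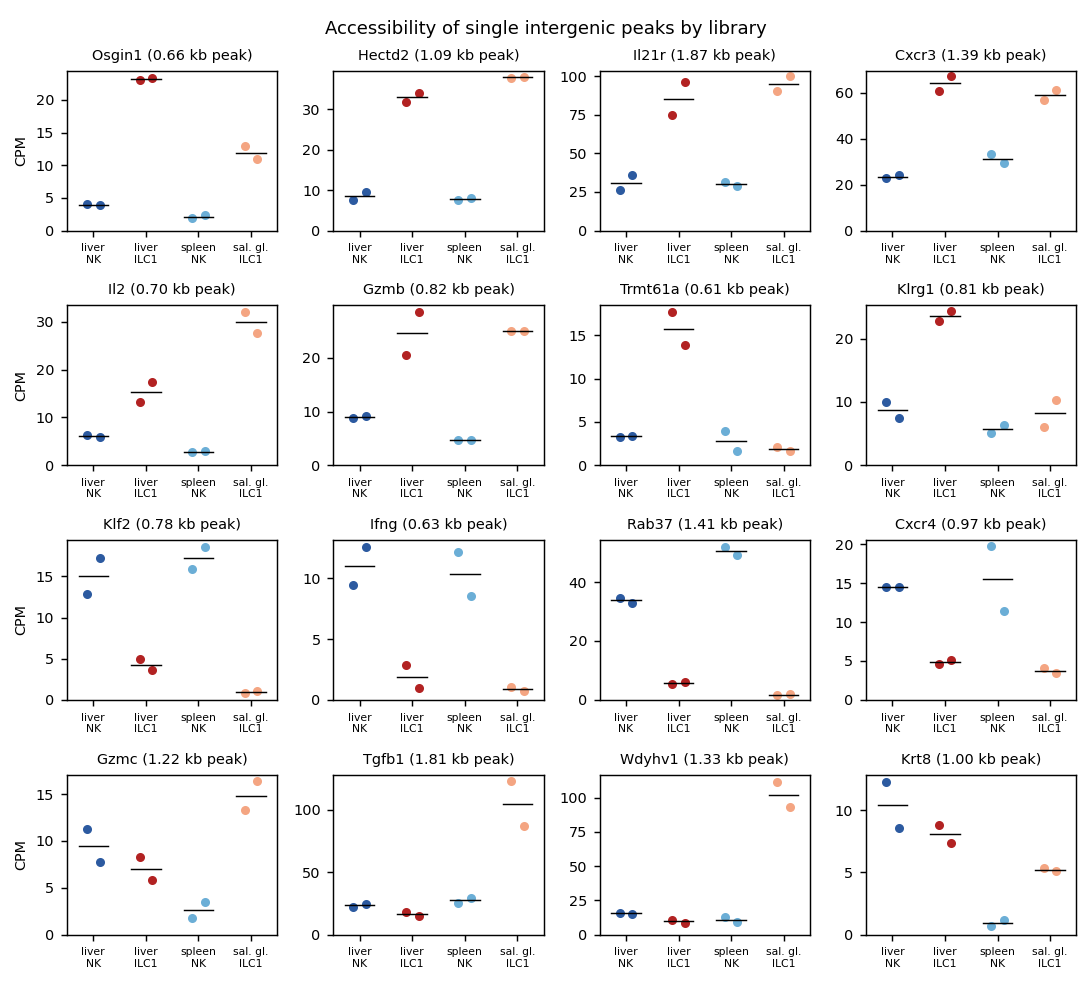
Accessibility of 16 intergenic peaks in each of the 8 ATAC libraries (points, CPM, each vertical axis from 0), by group, with the group mean as a line. The ILC1 points lie above the NK points at Osgin1, Hectd2, Il21r, Cxcr3, Il2 and Gzmb and below them at Klf2, Ifng and Rab37.

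Over both organs the mean of the ILC1 groups differed from the mean of the NK groups at 4212 intergenic peaks (46.0%, against 44.0% of all peaks), 1809 higher and 2403 lower (all peaks, 21.0% and 23.1%). Genes with several called peaks mostly had them in the same direction: in the liver pair 173 genes had 2 or more called peaks, all in 1 direction at 133 genes and in both directions at 40.

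Organs were compared within each cell type. The libraries of the other organs were also deeper, at 11101944 to 26944890 counts against 5609587 to 9957335 in liver, and the part of depth was not tested. Between salivary gland and liver ILC1s 4467 intergenic peaks were called (48.8%, against 48.7% of all peaks), 1616 higher and 2851 lower in salivary gland (all peaks, 22.8% and 25.9%). Between spleen and liver NK cells 2926 were called (32.0%, against 40.6%), 883 higher and 2043 lower in spleen (all peaks, 20.9% and 19.8%). By type, 54% of promoter, 33.1% of intron and 34.6% of exon peaks were called between NK cells. In both comparisons, intergenic calls leaned lower outside the liver while promoter calls leaned higher: 36.2% of intergenic and 64.9% of promoter calls were higher in salivary gland ILC1s, and 30.2% and 81.1% in spleen NK cells. The lower lean was not particular to these peaks. Of intron, exon and unassigned intergenic calls, 40.7%, 41.2% and 32.9% were higher in salivary gland ILC1s, and 24.4%, 28.8% and 19.3% in spleen NK cells. The size of this lean moved with the scaling. With library totals in place of TMM the higher share of intergenic calls was 22.3% in the ILC1 comparison and 5.80% in the NK comparison. With offsets that depend on peak level, added after the data were seen, it was 47.5% and 34.4%. TMM factors taken from the intergenic peaks alone, which by construction centre these peaks near 0, gave 49.2% and 43.9%.

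The lean also followed the level of a peak. In spleen against liver NK cells, the 2296 intergenic peaks with the highest mean CPM held 783 higher and 141 lower calls, and the 2266 with the lowest held 6 higher and 612 lower. In salivary gland against liver ILC1s these were 938 higher and 236 lower, and 108 higher and 761 lower. The plot of change against level shows this tilt. With level-dependent offsets the NK count was 1409, under the 1632 of the liver pair with the same offsets. It was 1401 without liver NK replicate 1, and 1362 without spleen NK replicate 1, where the liver pair had 1553. Of the 167 tested intergenic peaks that overlapped a RefSeq start window, 50 were higher and 25 lower in spleen than in liver NK cells, and 41 were higher and 45 lower in salivary gland than in liver ILC1s. The 2 organ comparisons share no library. Of the 2043 peaks lower in spleen NK, 1044 were also lower in salivary gland ILC1s (51.1%, and 36.6% of the 2851), and of the 883 higher in spleen NK 364 were also higher (41.2%, and 22.5% of the 1616). At 257 peaks salivary gland ILC1s were higher and spleen NK cells lower than the liver, and at 59 the reverse.

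**Figure D4:**
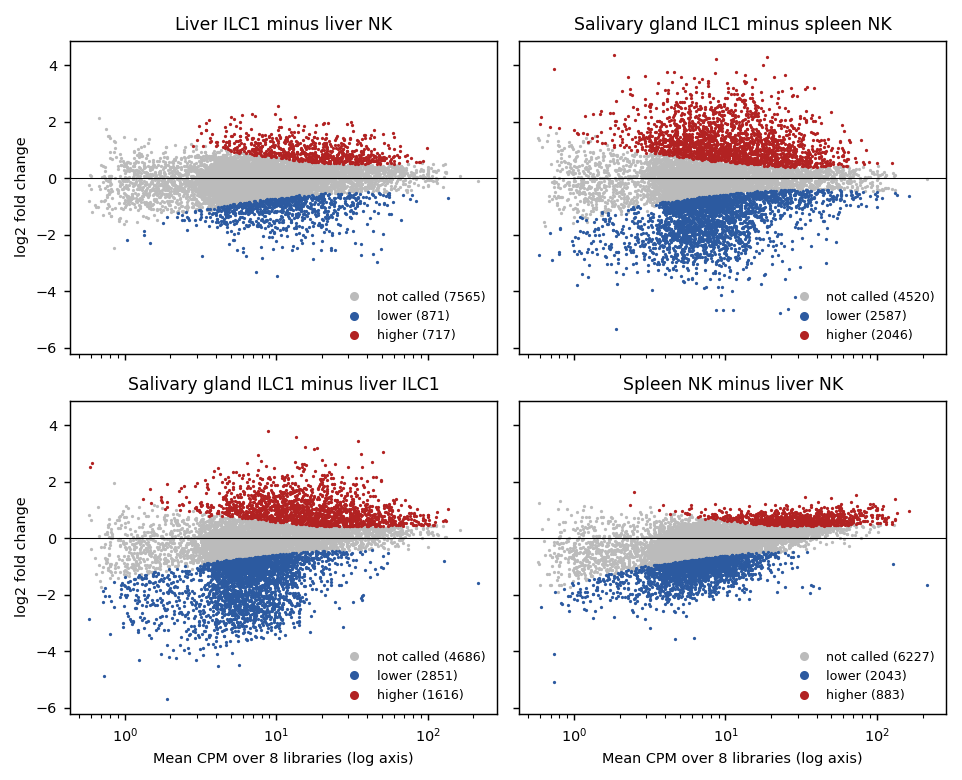
Log2 fold change of each tested intergenic peak (vertical axis) against its mean level over the 8 libraries (horizontal axis, CPM on a log axis) for the comparisons named on the panels. Peaks of high level lie more often above 0 and peaks of low level more often below 0 in the comparisons between organs.

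Peaks that were high in salivary gland ILC1s alone led that comparison. A peak near Wdyhv1, a glutamine amidase gene, at chr15:58164450-58165781 stood at 112 and 92.8 CPM in salivary gland ILC1, 10.9 and 8.29 in liver ILC1, 15.7 and 15.3 in liver NK and 12.7 and 9.08 in spleen NK. The rise over liver ILC1s was 3.43 ± 0.21 (SE, adjusted p = 1.23e-57). A peak near it, given to the ubiquitin ligase gene Fbxo32, rose by 2.69 ± 0.24. Tgfb1, the gene of the cytokine TGF-beta 1, had a downstream peak at chr7:25706914-25708729 with 123 and 87.0 CPM in salivary gland ILC1, 18.4 and 14.5 in liver ILC1, 22.3 and 24.5 in liver NK and 25.5 and 29.1 in spleen NK. Salivary gland ILC1s were above every other library (2.68 ± 0.20 (SE, adjusted p = 2.74e-38)). Diaph2 rose by 3.57 ± 0.26 and the Nfil3 peak at chr13:53000217-53002218 by 1.09 ± 0.19. Mapk1ip1l rose by 3.06 ± 0.22 and Dusp1 by 2.99 ± 0.22. At the last 2 of these, liver ILC1s were the low group: the Mapk1ip1l peak stood at 9.42 and 9.36 CPM in liver ILC1, 82.8 and 73.6 in salivary gland ILC1, 32.9 and 41.0 in liver NK and 79.2 and 74.5 in spleen NK.

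Losses in salivary gland ILC1s included a peak near C1qa, a complement gene known from macrophages, with 10.8 and 6.44 CPM in liver ILC1, 0.547 and 0.247 in salivary gland ILC1, 10.8 and 10.6 in liver NK and 2.13 and 3.52 in spleen NK (-4.49 ± 0.44 (SE, adjusted p = 3.67e-22)). Both liver groups were high and both other groups low. Myeloid marker peaks summed to 215 and 218 CPM in liver ILC1 and 259 and 313 in salivary gland ILC1 (13 peaks), and their part in this result was not tested. Tnfsf4, the gene of the costimulatory ligand OX40L, had a peak at 15.4 and 10.3 CPM in liver ILC1 and 1.78 and 0.576 in salivary gland ILC1 (-3.54 ± 0.34 (SE, adjusted p = 3.42e-23)). The peak of Aatf, a regulator of transcription and apoptosis, fell by -4.52 ± 0.50, that of Trmt61a by -3.05 ± 0.34 and that of Il2rb by -1.67 ± 0.19.

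Between NK cells, named gains in spleen were smaller than named losses. The Trappc9 peak, near a vesicle tethering gene, stood at 35.9 and 43.4 CPM in liver NK and 119 and 109 in spleen NK (1.53 ± 0.20 (SE, adjusted p = 5.91e-11)). The Zfp869 peak, which holds the start of this zinc finger gene given above, stood at 69.4 and 88.3 CPM in liver NK and 216 and 200 in spleen NK (1.40 ± 0.22 (SE, adjusted p = 1.67e-08)), and a peak with the start of Zfp983 rose by 1.21 ± 0.20. A peak of Actb, the beta-actin gene, rose by 1.22 ± 0.20, and the Runx3 peak named above by 0.96 ± 0.21. The peak assigned to Sept9, a septin gene, went from 12.5 and 10.8 CPM in liver NK to 0.818 and 1.17 in spleen NK (-3.55 ± 0.43 (SE, adjusted p = 1.98e-13)). Krt8, a keratin gene of simple epithelium, had an upstream peak with 12.3 and 8.53 CPM in liver NK, 8.82 and 7.31 in liver ILC1, 0.655 and 1.17 in spleen NK and 5.34 and 5.11 in salivary gland ILC1 (-3.53 ± 0.40 (SE, adjusted p = 6.28e-15)). Spleen NK cells were the lowest group, which also had the lowest sum of salivary epithelium marker peaks, of whose 26 peaks this is 1, and their part in the result was not tested. The Gzmc peak fell by -1.86 ± 0.32, that of Cdh17, a cadherin gene, by -2.28 ± 0.39 and that of Hvcn1, a proton channel gene, by -2.26 ± 0.43.

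The promoter peak of the same gene is a readout that the choice of peaks did not use. Of 466 intergenic peaks higher in liver ILC1s whose gene had a tested promoter peak, 132 had a promoter that was higher as well and 12 one that was lower. Of 433 lower intergenic peaks, 39 had a higher and 51 a lower promoter. Over the 3951 peaks not called, 493 promoters were higher and 195 lower. The changes of peak and promoter correlated with r = 0.238 across 4850 pairs, which share libraries and normalization. At Il2 the promoter rose by 1.90 beside the intergenic peak, and at Zfp683 by 1.72. At Il21r (0.29, adjusted p = 0.314) and Itga1 (0.20, adjusted p = 0.523) the intergenic peaks were called and the promoter was not.

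RNA of the assigned genes was compared between the mean of the 3 liver ILC1 populations and liver NK cells, in libraries that the ATAC data do not share. Of the 6289 genes, 4411 were in the RNA table and 3107 were tested, and 351 differed, 166 higher and 185 lower in ILC1s. Over all 17124 genes tested 5.92% differed (2.90% higher and 3.02% lower). Blocking on mouse gave 639, mice 4 to 6 alone gave 675 and DESeq2 gave 542. Among peaks higher in liver ILC1s, 71 of 397 (17.9%) lay at a gene with higher RNA and 23 (5.79%) at one with lower RNA. Among lower peaks, 11 (2.81%) lay at a gene with higher and 56 (14.3%) at one with lower RNA, and among 3794 peaks not called 199 were at higher and 242 at lower genes. The correlation of peak and RNA change across 4583 peaks was r = 0.11. Of 125 genes called in both readouts, 50 were higher in both and 46 lower in both.

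**Figure D5:**
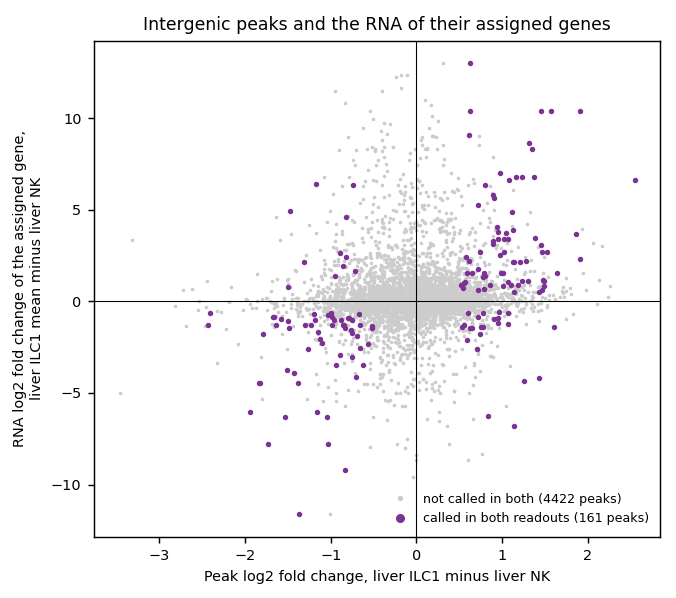
Log2 fold change of intergenic peaks (horizontal axis, liver ILC1 minus liver NK) against that of the RNA of their assigned genes (vertical axis, mean of the liver ILC1 populations minus NK), for 4583 peaks. Of these, 161 were called in both readouts (purple), in all 4 quadrants.

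RNA was higher at several genes whose peaks are named above as gains, which do not stand for all 397 peaks. Osgin1 RNA ranged from 0 to 2.10 CPM in 4 NK libraries and from 53.6 to 260.6 in 11 ILC1 libraries (median 134), a change of 6.64 ± 0.84 (SE, adjusted p = 0.000123). Zfp683 RNA went from 0.261 to 1.63 CPM in NK to 54.6 to 206.8 in ILC1s (median 103, change 6.77 ± 0.49). Neither gene's groups overlapped. Il2 RNA was at most 0.206 CPM in NK and 3.46 to 39.4 CPM in ILC1s (median 20.1), where the fitted change of 8.66 depends on the prior count because 3 of 4 NK libraries are at 0. Csf2 (3.47), Cxcr3 (3.10), Il21r (2.71), Lag3 (4.07) and Itga1 (4.85) RNA was higher too, and none of their groups overlapped.

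At genes with losses RNA was lower at Klf2, from 1219 to 2864 CPM in NK to 15.6 to 224.1 in ILC1s (median 75.5, change -4.46 ± 0.32, adjusted p = 1.11e-06). It was also lower at S1pr1 (-2.92 ± 0.36) and Klf3 (-2.07 ± 0.24), with no overlap of the groups. These genes do not stand for all losses. RNA was not called at Rab37 (0.01 ± 0.19, adjusted p = 0.9998), Mdm2 (-0.26 ± 0.24, adjusted p = 0.696) or Cxcr4 (-1.80 ± 0.80, adjusted p = 0.263). Some genes did not pair the readouts. Klrg1 RNA was 557.6 to 843.2 CPM in NK and 10.6 to 110.7 in ILC1s (change -4.17 ± 0.43), while its peak rose. Il7r RNA was 2.96 to 6.61 CPM in NK and 30.3 to 203.8 in ILC1s (change 4.59 ± 0.62), while its peak fell. As given above, the fall of the Il7r peak was no longer called when any of the liver libraries was left out. Gzmb RNA overlapped between the groups, at 1176 to 1463 CPM in NK and 411.5 to 3243 in ILC1s (-0.10 ± 0.18, adjusted p = 0.865). The ILC1 populations lay on both sides of NK, with 1878 to 3243 CPM in DP and 411.5 to 654.4 in DN libraries. FMSP libraries held 1155 to 1909 CPM. The ATAC ILC1 labels name the alleles of DP cells, though the design text gives another gate. Ifng RNA (0.65 ± 0.37, adjusted p = 0.416) and Fasl RNA (-0.38 ± 0.16, adjusted p = 0.235) also overlapped between NK cells and ILC1s. Gzmb, Ifng and Fasl each had called peaks. Gzmc RNA was 1.01 to 3.92 CPM in NK and 10.2 to 496.5 in ILC1s (change 4.45 ± 0.38), highest in the DP libraries, whose sort used it, while its liver peak did not differ.

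At Il10ra, the interleukin 10 receptor gene, RNA was 224.0 to 389.6 CPM in NK and 58.2 to 175.1 in ILC1s (-1.46 ± 0.25) and its 3 intergenic peaks did not move as 1. The peak at chr9:45278008-45278800 fell by -0.84 ± 0.23 (adjusted p = 0.00287, and 0.0862 without liver ILC1 replicate 1). Those at chr9:45274054-45275140 (0.65 ± 0.24, adjusted p = 0.0437) and chr9:45282172-45283171 (-0.52 ± 0.19, adjusted p = 0.0426) were near the threshold. The call of the rising peak was lost with a replicate block (adjusted p = 0.0608), with DESeq2 (0.149), with its size factors in edgeR (0.0526), with library totals (0.142), with level-dependent offsets (0.0632), with only the libraries compared (0.0644) and in 7 of the 8 omissions of 1 library. That of the other was lost with DESeq2 (0.151), with TMM on the intergenic peaks alone (0.0981), with only the libraries compared (0.0901) and without liver NK replicate 2 (0.694) or liver ILC1 replicate 1 (0.520).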

How the data were processed

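ATAC values were the authors' deposited read counts per peak in 1 shared peak set of 8 libraries, and Bowtie2, SAMtools, MACS2 and mm10 come from the submitters' processing notes. How the type and gene of a peak were assigned is not given in the sources used here, and peak bounds are printed as the file gives them. RNA values were deposited expected counts per gene, made with Salmon 1.6 per the submitters' processing notes, and were used as whole numbers.

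The test was edgeR's quasi-likelihood F-test (edgeR 4.0.16, R 4.3.3, filterByExpr at a minimum count of 10, TMM factors, robust fits), fitted once per assay over all its libraries with 1 mean per group. This left 4 residual degrees of freedom for 51292 peaks, with infinite prior degrees of freedom, so p-values rest on the trended dispersion, and 11 for 17124 genes. Tests are 2-sided, with Benjamini-Hochberg adjustment over all features of a comparison. CPM use TMM-adjusted library sizes. The methods were tested on simulated data. DESeq2 1.42.0 and other filters, scalings, blocks and left-out libraries served as alternatives.

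The intergenic peaks and the gene lists were chosen with earlier results of these data known. Peaks named per comparison were taken from the 8 highest and 8 lowest changes among called peaks of at least 5 CPM without overlap of libraries and not of predicted genes, and from the peak with the smallest p of a listed gene. Further peaks of listed genes, and peaks that hold a start window, were named after their values were seen. The labels pair RNA libraries by mouse. Deviations of RNA libraries of 1 mouse had a median r of 0.198 over 16 pairs (range 0.0724 to 0.646). Libraries of different mice and groups had a median r of -0.0278 over 68 pairs (range -0.404 to 0.597), so the ranges overlapped. The ATAC labels give no batch. B cell, T cell, myeloid, hepatocyte and salivary epithelium marker lists were summed per library; hepatocyte markers stood at 77.9 to 103 CPM over 10 peaks.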

Additional observations from a re-analysis of the deposited data

Results flagged for a closer look

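The change between ILC1s and NK cells differed between the liver pair and the pair of salivary gland ILC1s and spleen NK cells at 2617 intergenic peaks, by a test of the difference itself (edgeR's quasi-likelihood test, adjusted p below 0.05), against 30.0% of all peaks. Values below are this log2 difference, liver minus the other pair. It was above 0 at Slc2a10 (3.13), Trmt61a (2.83), the wider Klf2 peak (2.30), Rab37 (2.22), the S1pr1 peak nearer to the gene (1.98), Ccr7 (1.85), Axin2 (1.38), Il2rb (1.34), Runx3 (1.05) and the Zfp683 peak nearest to the gene (1.00). It was below 0 at Diaph2 (-4.39), Pi4k2b (-4.22), Tcrg-C2 (-3.21), Gzmc (-2.96), Ccr8 (-2.50), Ppp2r5c (-2.41), Dusp1 (-2.36), Rgs1 (-2.24), Mdm2 (-2.08), Tmem176b (-2.07), Il2 (-2.06), the downstream Cxcr4 peak (-1.04) and Nr4a3 (-1.76). It was also below 0 at Ttll11 (-1.54), the Tle4 peak (-1.50), Ank (-1.48), Lag3 (-1.30), the third Il10ra peak (-1.14), Gm5432 (-0.996) and the Gzmb peak nearer to the gene (-0.95). Tle4 encodes a corepressor, Rgs1 a brake on chemokine signalling, and Tmem176b a membrane protein of ILC1s.

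In RNA of the assigned genes, 1 library stood far from the rest of its group for a few genes by Dixon's criterion, which chance meets in about 1 in 20 groups. These libraries held 260.6 CPM of Osgin1, 82.0 CPM of Klrg1 and 331.5 CPM of Fasl among FMSP ILC1s, 26.6 CPM of Il2 and 1.34 CPM of S1pr1 among DP ILC1s, and 0.206 CPM of Il2 and 1176 CPM of Gzmb among NK cells. The other NK libraries were at 0 CPM of Il2, so any count above that meets the criterion there.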

How the results depend on the processing

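Counts of called intergenic peaks moved by more than 1.5 times at the following places. In liver ILC1s against NK cells they were 997 without liver NK replicate 1, 1027 without liver NK replicate 2 and 742 without liver ILC1 replicate 2 (742 to 1723 over all single omissions, 1588 with none). In spleen against liver NK cells they were 1409 with level-dependent offsets and 1362 to 3109 over the omissions, and the cause was not tested. Over the omissions the counts ran from 3577 to 4879 for salivary gland ILC1s against spleen NK cells, 3217 to 4432 for the ILC1s of both organs, 3571 to 4188 for both cell types and 1963 to 2436 for the difference between the pairs. DESeq2 called 1170 peaks in the liver pair, 4053 in the other pair, 3851 between ILC1s, 2172 between NK cells, 3670 for both cell types and 1983 for the difference between the pairs. For the difference between the pairs, 50.2% of calls were higher, and 39.9% with library totals. With library totals the median change of all peaks was -0.48 between NK cells (-0.11 with TMM) and -0.29 between ILC1s (-0.04).

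Deviations of ATAC libraries with the same replicate number correlated with r from -0.0987 to 0.154 over 6 pairs of groups. With 2 libraries a group each pair of groups gives a single r, which cannot settle whether the numbers pair the libraries. With a replicate block the counts were 1619, 4676, 4537, 2991, 4258 and 2688 in the same order, and of 87 named values 1 lost its call. RNA counts were 639 with the mouse as a replicate block, 542 with DESeq2, 675 in mice 4 to 6 and 249 to 404 over omissions, and the 15 named RNA calls held under each RNA alternative. The share of counts in intergenic peaks changed sign as a share of non-promoter counts (0.0276 percentage points) and ranged from -0.616 to 0.311 over omissions. No named peak reversed. Named calls were lost in 3 of 86 values with DESeq2, 3 of 87 with level-dependent offsets, and 30 of 696 when 1 library was left out. The 696 include omissions of libraries outside the comparison of a peak. Every lost call was in the liver pair. Of the 2266 peaks of lowest level 5.52% were called in the liver pair, against 32.3% of the 2296 of highest level, and the part of depth was not tested.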
